A study of Sus scrofa with 12 samples.

Results

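Collagen chain genes were followed in the endometrium of gestating sows. They were taken as all genes of the deposited table whose name is COL, a number, A and a number, which gave 43 of 20674 genes. The animals were Landrace x Yorkshire sows of the second or the third parity, fed from breeding over 114 days of gestation. The L − N group received a low-fiber diet with 3.73% crude fiber, and the L + N group received that diet with 0.05% N-carbamylglutamate (NCG), an analog of N-acetylglutamate that is fed to raise arginine synthesis. The H − N group received a high-fiber diet with 7.46% crude fiber, and the H + N group received that diet with 0.05% NCG. Each group had 3 libraries of poly(A) RNA, 12 in all, with 14369781 to 19309724 counted reads per library. The titles number the libraries within a group and do not tie them to named animals, so p-values measure the spread between these samples.

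Collagen molecules are helices wound from chains that a separate gene encodes for each chain. Fibrillar collagens form the cables that give tissue its tensile strength, basement membrane collagens form the sheet beneath epithelium and around vessels and muscle cells, and the remaining classes coat fibrils, anchor the sheets or span the cell membrane. In the pregnant uterus, stromal fibroblasts are a main source of the fibrillar chains, and the matrix is remodeled as the endometrium grows and the placenta attaches. The chains also serve as ligands of integrins. In the deposited table, 16 of the 43 genes are annotated to the PI3K-Akt signaling pathway, and the same number to ECM-receptor interaction.

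Levels were compared between genes as FPKM, the count scaled by gene length and library total that the authors deposited. Most collagen mRNA came from the chains of type III and type I. COL3A1, the only chain of type III collagen, averaged 3526 FPKM over the 12 libraries and ranked 5 among all genes of the table, from 1909 FPKM in the lowest library to 5999 in the highest. COL1A2 and COL1A1, the chains of type I collagen, averaged 1401 and 1350 FPKM and ranked 24 and 28. These 3 genes held 67.6% to 81.1% of the counts of all collagen chains. The next 7 were COL4A1 (196 FPKM), COL6A2 (193 FPKM), COL5A2 (184 FPKM), COL6A3 (150 FPKM), COL4A2 (135 FPKM), COL5A1 (125 FPKM) and COL15A1 (101 FPKM). The order among these is not firm, because COL4A1 ranged from 114 to 402 FPKM between libraries and COL6A3 from 97.9 to 300.4. COL14A1, COL12A1, COL18A1 and COL16A1 averaged 60.6 to 77.8 FPKM, and every other chain averaged 22.1 FPKM or less.

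**Figure D1:**
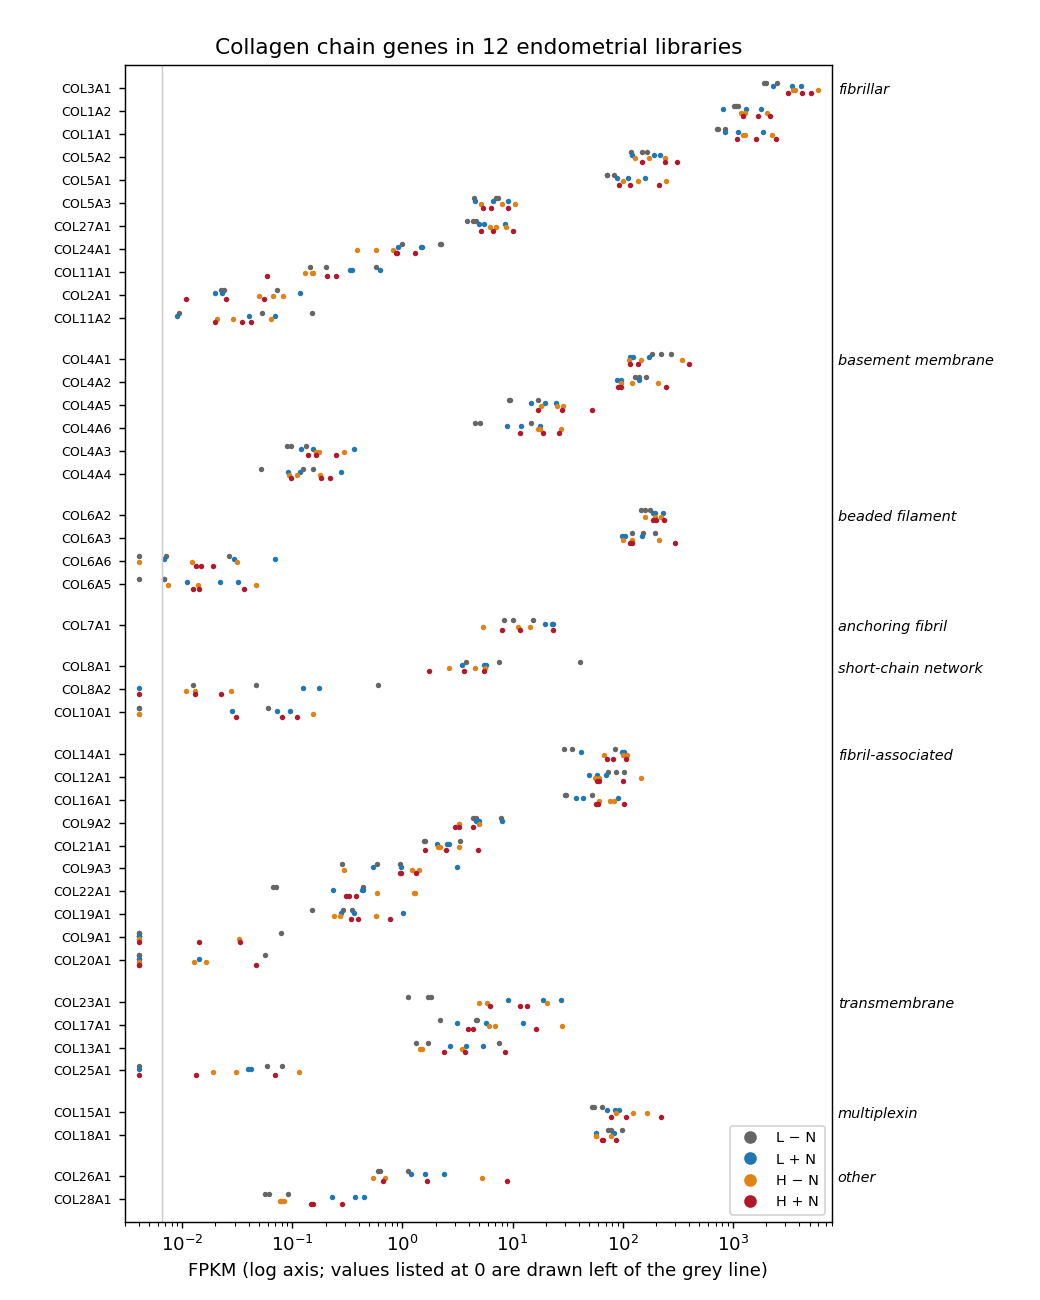
Deposited FPKM (log axis) of the 43 collagen chain genes by structural class, 1 point per library, colored by group; 27 values listed at 0 are drawn left of the grey line. COL3A1, COL1A2 and COL1A1 lie above all other chains, and the range between the highest and lowest chain is far wider than the range between libraries.

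At the low end, 8 genes did not pass the count filter and were not tested. These are COL2A1, COL9A1, COL10A1, COL11A2 and COL20A1, which include chains best known from cartilage, along with COL6A5, COL6A6 and COL25A1. Their highest count in any library was 16 (COL11A2), so differences between groups were not detectable at this depth. The filter kept genes with more than 0.616 CPM, the count scaled to the library total, in at least 3 libraries, and the other 35 collagen chains passed. COL28A1 was above it in 6 libraries, all of them from groups fed NCG, and COL8A2 in 3, all of them from the low-fiber groups. All further CPM values are also scaled by TMM factors.

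Collagen chains together took a larger share of the library in many animals outside L − N. In L − N they made up 3.16%, 2.75% and 2.94% of all counts. In L + N the shares were 2.80%, 3.86% and 5.13%, in H − N 4.01%, 4.03% and 6.70%, and in H + N 4.83%, 3.61% and 6.79%. All 6 libraries of the high-fiber groups lay above the 3 L − N libraries, and L + N overlapped with L − N through its replicate 1. Summed over the 43 genes, the level was 5306 ± 408 FPKM (SD, n = 3) in L − N, 7276 ± 2172 FPKM in L + N, 9103 ± 2813 FPKM in H − N and 9353 ± 2830 FPKM in H + N. The SD outside L − N was several times that within L − N, so the group means are much less certain there. Fibrillar chains made up 79.7% of the summed FPKM in L − N, 85.4% in L + N and 86.3% in each high-fiber group. Basement membrane chains made up 7.43% in L − N and 3.94%, 4.17% and 4.18% in the other groups, with L + N first and H + N last. No test was run on these sums, which the 3 most abundant chains set. In bulk tissue, fewer cells of a type and less RNA per cell cannot be told apart.

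**Figure D2:**
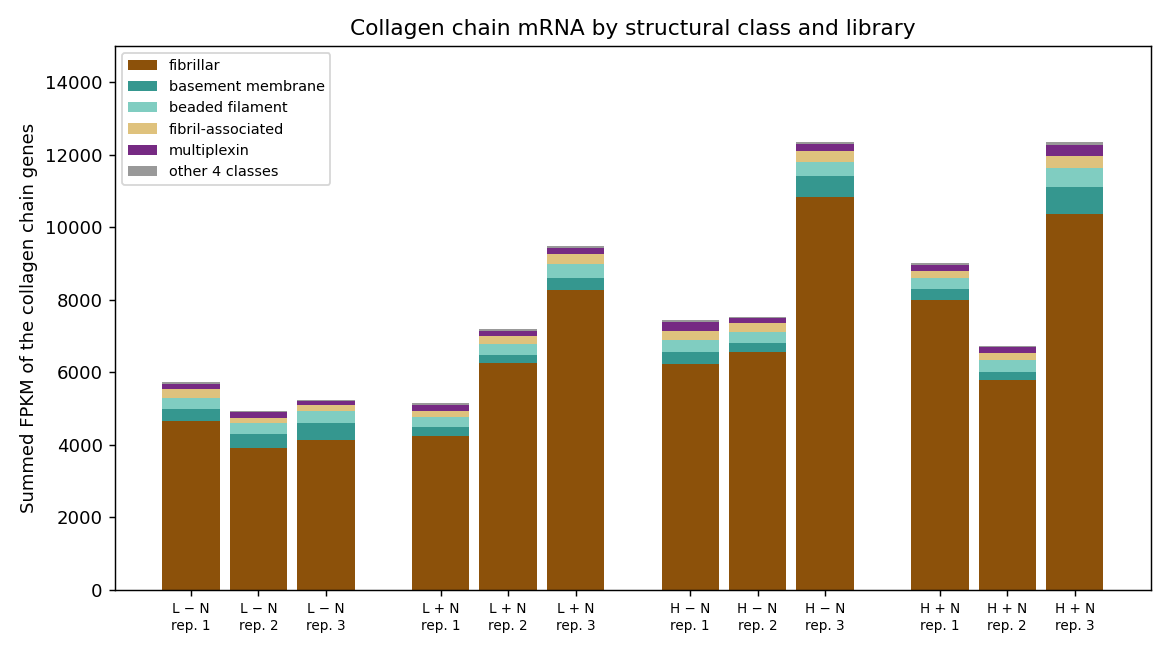
Summed FPKM of the collagen chain genes in each library, stacked by structural class from 0, with anchoring fibril, short-chain network, transmembrane and other chains joined in grey. The fibrillar part sets the height of every bar, and replicate 3 of H − N and of H + N are the highest, at 12350 and 12341.

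Several features of the libraries bear on these values. L − N replicate 1 stood apart from the other L − N libraries, with a chi-square per gene of 101 and 76.0 against them, while those differed from each other by 23.6. Its summed level of 6 smooth muscle markers was 5197 CPM, against 1614 and 2001 in the other L − N libraries and 797 to 1595 elsewhere. Of these markers, ACTA2 and TAGLN were called lower in L + N than in L − N. The summed level of 5 macrophage markers was 465 CPM in L − N replicate 1, 1357 and 1384 in the other L − N libraries and 246 to 528 elsewhere. Of the 5, 4, 2 and 3 were called lower in H − N, L + N and H + N than in L − N. In the same order, 2.91%, 3.99% and 3.58% of all genes tested were called in either direction. The 6 fibroblast and stroma markers summed to 8548 to 10638 CPM in L − N, 7714 to 9203 CPM in L + N, 6042 to 7685 CPM in H − N and 7564 to 8635 CPM in H + N. These sums lay below those of L − N or overlapped with them, while the collagen share lay above or overlapped. VIM was called lower in H − N and H + N, and THY1 in H − N. VIM alone averaged 2909 CPM among L − N libraries, against 1582, 952 and 1244 CPM for L + N, H − N and H + N. Of the 6 markers, 3, 1 and 2 had a log2 fold change above 0, in that order. The lower sums were therefore not shared by all 6 markers. The dividing cell markers MKI67 and TOP2A summed to 28.9 to 90.4 CPM in L − N and 99.0 to 274 CPM elsewhere. Both were called higher in L + N and H + N, and TOP2A in H − N. PGR and ESR1, the progesterone and estrogen receptors, summed to 448 to 549 CPM in L − N and 616 to 1400 CPM elsewhere, and both were called higher in H + N. The 3 trophoblast markers summed to 10.9 to 15.6 CPM in L − N, 23.7 to 30.9 CPM in H − N without overlap, 13.6 to 26.7 CPM in L + N and 11.95 to 42.5 CPM in H + N. Of these, GCM1 stayed at or below 0.28 CPM, while PEG10 ran from 8.06 to 35.4 CPM with a log2 fold change of 0.85 for HF (edgeR adjusted p = 0.154) and TFAP2C reached 9.07 CPM. The 5 endothelium markers summed to 1066 to 1559 CPM in L − N and 753 to 915 CPM in L + N, without overlap, and PECAM1 was called lower in L + N. The 2 erythroid markers summed to 752, 62.4 and 513 CPM in L − N, 26.5 to 81.8 CPM in L + N, 31.5 to 55.0 CPM in H − N and 27.8 to 292 CPM in H + N. The 4 neutrophil markers summed to 145 CPM in H − N replicate 3 and 4.02 to 70.0 CPM elsewhere. Sums of the 4 T and NK cell markers overlapped between all groups. Marker calls also depended on single libraries. Without H − N replicate 1, 0 of all genes tested were called in H − N, and without H + N replicate 1, only 1 was called in H + N. The part of these shifts in the collagen results was not tested, and leaving out L − N replicate 1 is given below where it changes a call.

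Tests used edgeR's quasi-likelihood model on the counts of all 12 libraries, with Benjamini-Hochberg adjustment over the 15351 genes tested. A gene was called when its adjusted p was under 0.05 and its absolute log2 fold change over 1. For the question of what fiber, NCG and their combination change, the 3 other groups were each compared with L − N, and these comparisons share the 3 L − N libraries. COL23A1 and COL28A1 were called higher in L + N, COL23A1 higher and COL24A1 lower in H − N, and COL23A1 higher in H + N. That is 2 of 35 chains in L + N, 2 chains in H − N and 1 chain in H + N, while 3.99%, 2.91% and 3.58% of all genes tested were called. Split by direction, 3.32% of all genes were called higher in L + N, 0.892% were in H − N and 2.29% were in H + N, and 2.01% were called lower in H − N. With 1 library left out, the number of all genes called ran from 143 to 911 in L + N (613 with all libraries), from 0 to 1120 in H − N (446) and from 1 to 948 in H + N (549), so this background is itself unstable. For HF against LF, the mean of both high-fiber groups against both low-fiber groups, 0 of 35 were called, against 0.0261% of all genes, which is 4 genes, or 0 to 331 with 1 library left out. DESeq2 called 1 of 43 chains for HF, and its share of all genes is not given here. For NCG, the mean of both NCG groups against both others, COL23A1 and COL28A1 were called higher, 2 of 35 against 1.8% of all genes, or 1.67% called higher. COL28A1, also counted among the calls in L + N, passed the filter only through the NCG groups. The interaction compares the change with NCG between the diets, as the change under high fiber less that under low fiber. There edgeR called 0 chains and 0% of all genes, and DESeq2 called COL23A1.

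At an unadjusted p under 0.05, 15 chains (42.9%) passed for HF, where 19.5% of all genes did. They were 10 higher and 5 lower, against 9.3% and 10.2% of all genes. In H − N there were 14 (40%), namely 11 higher and 3 lower, where 24.4% of all genes passed, 11.3% higher and 13.1% lower. In H + N there were also 14, namely 10 higher and 4 lower, where 27.5% of all genes passed, 14.6% higher and 12.9% lower. The count was below the background for the contrasts of NCG on the low-fiber diet and overall. It was 2 higher and 1 lower in L + N, where 27.8% of all genes passed, 14% higher and 13.7% lower, and for NCG it was 3 higher and 0 lower, where 23.6% passed, 13.2% higher and 10.4% lower. For the interaction 3 chains passed, against 12.8% of all genes. These chains share libraries and in some of them vary together, as given below, so the counts are not sums of independent results. The counts also include COL8A2 among the lower chains for HF, H − N and H + N. They include COL28A1 among the higher chains for NCG, L + N and H + N. Both passed the filter only through groups in which they were high.

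In all comparisons but the interaction, more chains had log2 fold changes above 0 than below it. In L + N it was 25 of 35 chains (median 0.42, against −0.02 over all genes tested), in H − N 23 chains (median 0.27 against 0.03) and in H + N 26 chains (median 0.63 against 0.02). The share of all genes above 0 was 47.7% for L + N, 53.5% for H − N and 51.7% for H + N. For HF the value was above 0 in 26 chains (median 0.27 against 0.02), where 53.7% of all genes were, and for NCG in 24 (median 0.22 against −0.03), where 46.9% were. For the interaction it was above 0 in 11 chains, with a median of −0.17, where 49.4% of all genes were. The chains whose 3 libraries all lay above the 3 L − N libraries numbered 5 for L + N, 12 for H − N and 9 for H + N, that is 14.3%, 34.3% and 25.7% of 35, while 18%, 12.8% and 15.2% of all genes tested did so. Those lying wholly below numbered 2, 3 and 1, where 17.2%, 12.7% and 12.7% of all genes did. Among the chains wholly above in L + N and H + N is COL28A1, which passed the filter only through the NCG groups.

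**Figure D3:**
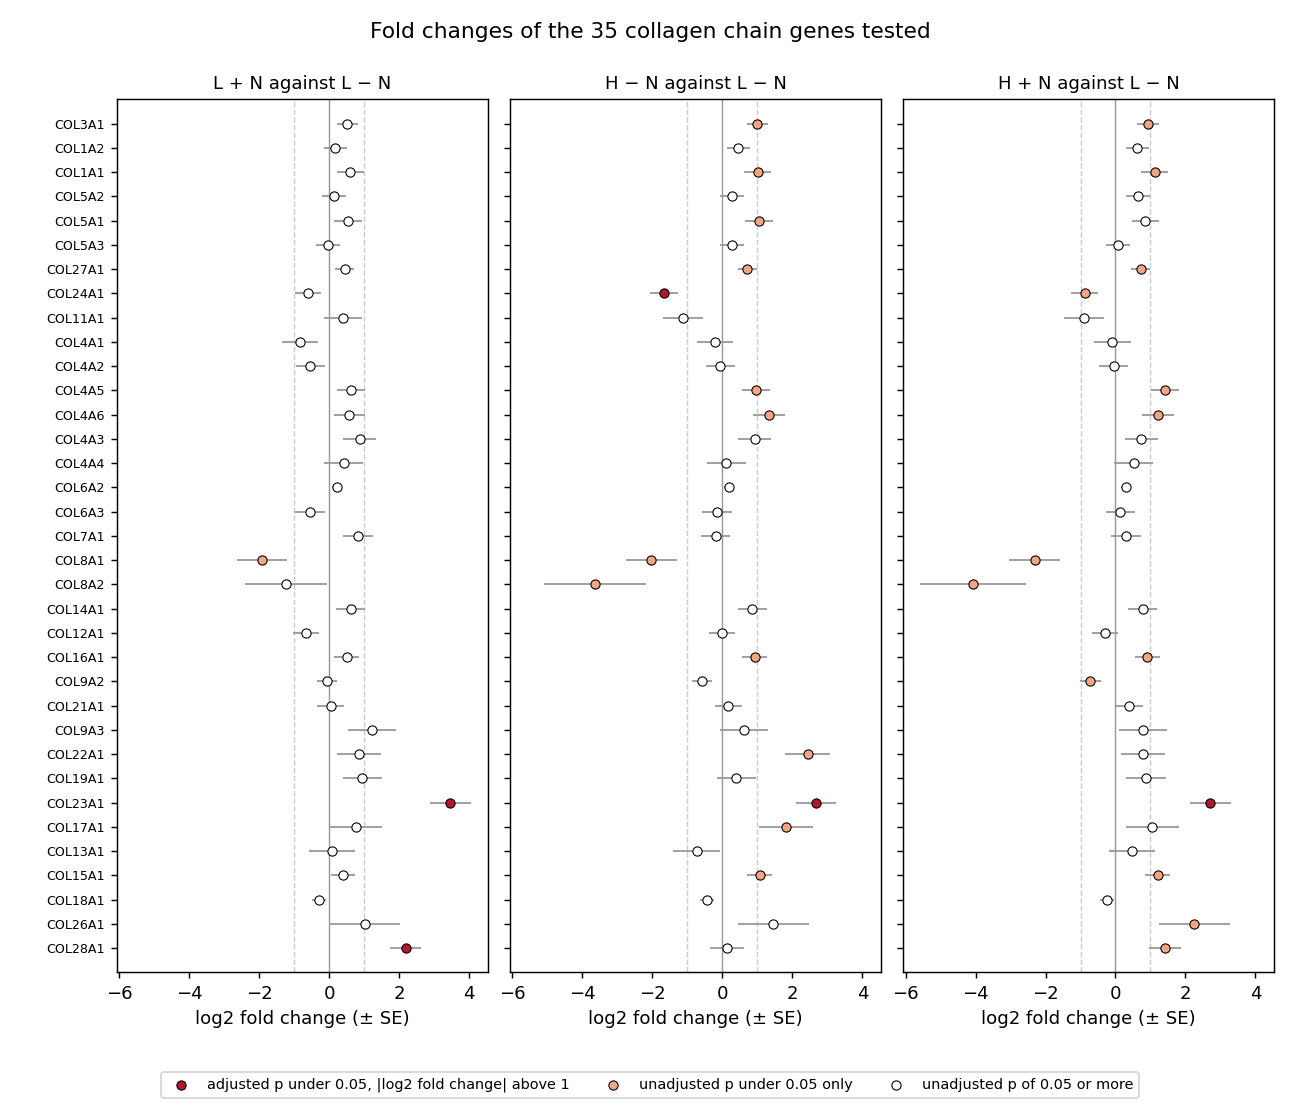
Log2 fold change (± SE) of the 35 collagen chain genes tested against L − N, by structural class from fibrillar at the top, with dashed lines at −1 and 1. Filled dark points are called, light points have an unadjusted p under 0.05 only; COL23A1 is called in all 3 panels, at 3.46, 2.68 and 2.71.

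COL23A1 encodes a collagen that spans the cell membrane and whose outer part can be shed. It lies on chromosome 2 of Sscrofa11.1, from 79766260 to 80141296 (gene ID 100521775), and overlaps no other gene of the table. Its level was 11.1, 11.0 and 7.19 CPM in L − N, which comes from 107 to 175 reads. It was 108, 53.8 and 161 CPM in L + N, 121, 35.3 and 31.9 CPM in H − N and 82.8, 36.3 and 73.5 CPM in H + N. Every library of the other groups lay above every L − N library, while those groups overlapped each other. No other collagen chain had L − N below all 9 other libraries, and 4.28% of all genes tested did. Against L − N, the log2 fold change was 3.46 in L + N (SE 0.589, edgeR adjusted p = 0.00879), 2.68 in H − N (SE 0.574, edgeR adjusted p = 0.0298) and 2.71 in H + N (SE 0.574, edgeR adjusted p = 0.0247). The interaction was −3.43 (SE 0.777), but it did not pass, with an edgeR adjusted p of 0.254 (0.000982 unadjusted). On the high-fiber diet the means were nearly alike, at 62.6 ± 50.3 CPM (SD, n = 3) in H − N and 64.2 ± 24.6 CPM in H + N. On the low-fiber diet they were 9.77 ± 2.24 CPM in L − N and 108 ± 53.6 CPM in L + N. For NCG as a main effect, which averages over both diets, the log2 fold change was 1.75 (SE 0.389, edgeR adjusted p = 0.0225). That value reflects the low-fiber pair of groups, since the high-fiber means were nearly alike. For HF the log2 fold change was 0.97 (SE 0.382, edgeR adjusted p = 0.199), or 0.52 without H − N replicate 1.

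These calls depend on single libraries, although the direction does not. In H − N, replicate 1 was far above the other replicates, and without it the log2 fold change was 1.78 (edgeR adjusted p = 0.0779). The call in H − N also missed the threshold when L − N replicate 2 was left out (0.0799) and when its replicate 3 was (0.131). The call in L + N missed it without L − N replicate 3, with an adjusted p of 0.0518. In H + N the adjusted p was 0.0566 and 0.104 without the second and the third L − N library, 0.0792 without the first H + N library and 0.0601 without the third. For NCG it was 0.0639 when L − N lacked its replicate 3, 0.0547 when L + N lacked its replicate 3 and 0.0593 when H + N lacked its replicate 1. The log2 fold change stayed above 0 in each of these fits.

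COL28A1 encodes a collagen with von Willebrand factor A domains, known mainly from peripheral nerve. It lies on chromosome 9 from 77670890 to 77841939 (gene ID 100510974). It was scarce throughout, at 0.255, 0.251 and 0.403 CPM in L − N and 0.311, 0.347 and 0.345 CPM in H − N, which comes from 4 to 6 reads per library. In L + N it was at 1.46, 1.80 and 0.916 CPM, and in H + N at 1.19, 0.598 and 0.674 CPM, from 11 to 31 reads per library. All 6 libraries with NCG lay above all 6 without it. That held for no other collagen chain and for 3.22% of all genes tested. COL28A1 entered the test only because it is high in the NCG groups, so its call is not independent of the filter. Its log2 fold change was 1.73 for NCG (SE 0.319, edgeR adjusted p = 0.0114), 2.18 in L + N (SE 0.450, edgeR adjusted p = 0.0165) and 1.41 in H + N (SE 0.458, edgeR adjusted p = 0.0754). In H − N it was 0.14 (SE 0.490, edgeR adjusted p = 0.896). The call for NCG was kept with any 1 of the 12 libraries left out. The call in L + N missed the threshold without replicate 2 of L − N (edgeR adjusted p = 0.0524), its replicate 3 (0.0561) or replicate 2 of L + N (0.0725).

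COL24A1, a minor fibrillar chain best known from developing bone, went the other way. It lies on chromosome 4 from 129911760 to 130243177 (gene ID 102157845). Its level was 8.09, 19.3 and 18.7 CPM in L − N, 6.89, 11.8 and 11.6 CPM in L + N, 6.42, 3.12 and 4.90 CPM in H − N and 7.25, 6.79 and 11.0 CPM in H + N. The H − N libraries all lay below those of L − N, and the H + N libraries overlapped with L − N through its replicate 1. COL24A1 had a log2 fold change of −1.67 in H − N (SE 0.390, edgeR adjusted p = 0.0369), −0.61 in L + N, −0.88 in H + N and −0.97 for HF (edgeR adjusted p = 0.110). The call in H − N was kept in 4 of the 12 fits that each left out a library, where the log2 fold change ran from −1.97 to −1.44. It was lost without replicate 2 of L − N (edgeR adjusted p = 0.105) or its replicate 3 (0.141), and without the H − N replicates 1, 2 or 3 (0.0744, 0.0941 and 0.0894). It was also just lost, at an adjusted p of 0.0511 to 0.0525, without L + N replicate 2 or 3 or the first H + N library. Without L − N replicate 1, which had the lowest level in its group, COL24A1 was called lower in H − N, in H + N (edgeR adjusted p = 0.0463) and for HF (edgeR adjusted p = 0.0179).

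**Figure D4:**
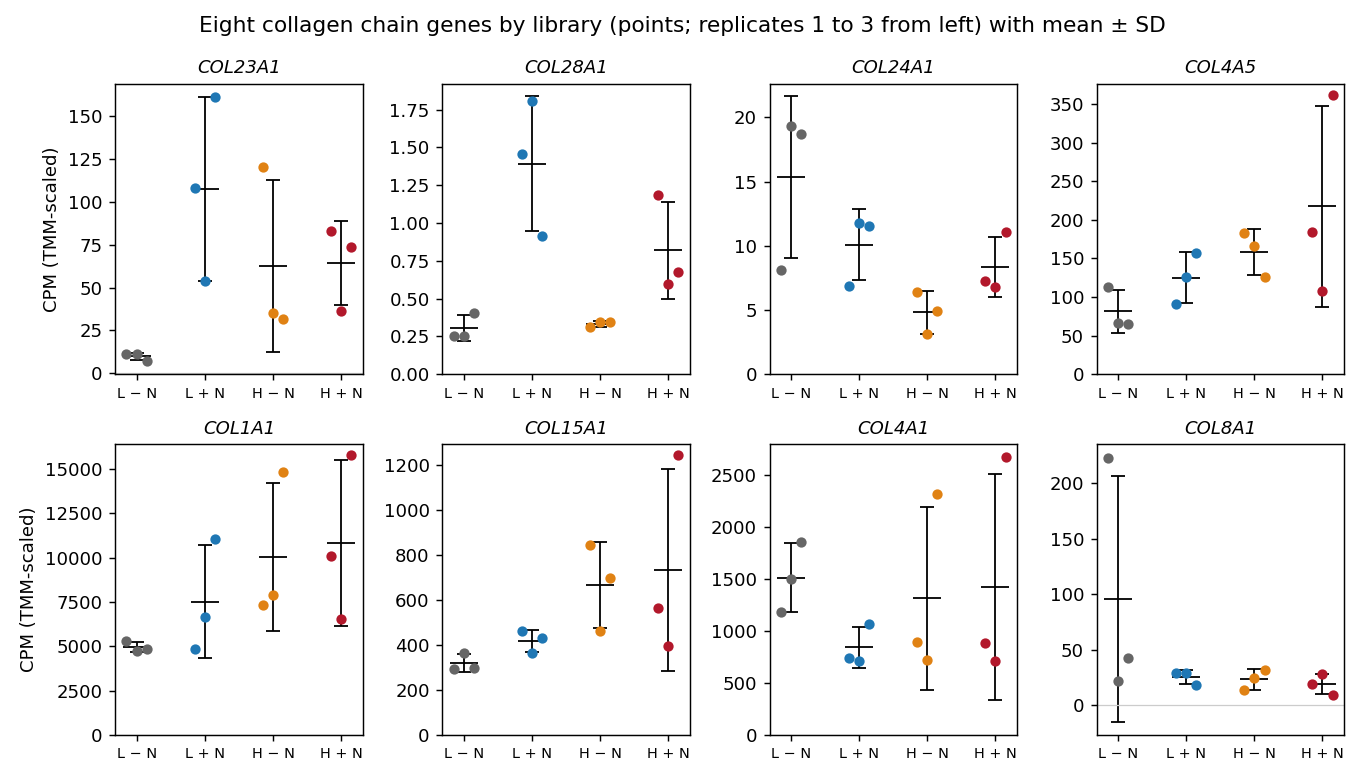
Level of 8 collagen chain genes (CPM, TMM-scaled, linear axes) in each library, with replicates 1 to 3 from left to right, and the mean ± SD of each group. COL23A1 sits between 7.19 and 11.1 in L − N and between 31.9 and 161 in the other groups, and the high points of COL4A1 and COL8A1 come from single libraries of a group.

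The abundant fibrillar chains were higher outside L − N without passing the threshold in the edgeR fit. COL1A1, which lies on chromosome 12 from 26379087 to 26397180, was at 5275, 4742 and 4852 CPM in L − N, 4864, 6636 and 11045 CPM in L + N, 7314, 7917 and 14849 CPM in H − N and 10108, 6518 and 15821 CPM in H + N. All 6 high-fiber libraries were above L − N, while the L + N libraries overlapped with it. For COL1A1 the log2 fold change was 0.60 in L + N, 1.02 in H − N (SE 0.385, edgeR adjusted p = 0.137), 1.13 in H + N (SE 0.386, edgeR adjusted p = 0.0886) and 0.77 for HF (SE 0.271, edgeR adjusted p = 0.160). Without replicate 3 of the group compared it was 0.23 in L + N, 0.62 in H − N and 0.75 for H + N. DESeq2 called COL1A1 higher in H + N (1.11, DESeq2 adjusted p = 0.0249). COL3A1 was at 12076, 9653 and 10255 CPM in L − N, 10467, 16123 and 19210 CPM in L + N, 16112, 17521 and 30248 CPM in H − N and 20438, 14637 and 25641 CPM in H + N. Here too the high-fiber libraries were all above L − N. Its log2 fold change was 0.998 in H − N (SE 0.309, edgeR adjusted p = 0.0824) and 0.92 in H + N (SE 0.308, edgeR adjusted p = 0.0811). COL1A2, the partner of COL1A1, averaged 5678 ± 322 CPM (SD, n = 3) in L − N, 6409 ± 2433 CPM in L + N, 7790 ± 2800 CPM in H − N and 8760 ± 2823 CPM in H + N. Its log2 fold change was 0.17 for L + N, which turned to −0.10 without L + N replicate 3, 0.46 for H − N and 0.63 for H + N.

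Type V chains join type I in mixed fibrils and limit fibril width. COL5A1 averaged 467 ± 47.0 CPM (SD, n = 3) in L − N, 675 ± 211 CPM in L + N, 969 ± 497 CPM in H − N and 845 ± 423 CPM in H + N, with a log2 fold change of 1.05 in H − N (edgeR adjusted p = 0.135), or 0.56 without H − N replicate 3. COL5A2 averaged 1015 ± 197, 1121 ± 330, 1219 ± 439 and 1576 ± 603 CPM in the same order, with log2 fold changes of 0.14, 0.26 and 0.63. Without replicate 3 of the group compared, the first became −0.02 and the second −0.05. The position of COL5A2 on chromosome 15 is 16177 bp from COL3A1. The counts of COL5A2 also share a stretch with WDR75, so they are uncertain to that extent. Of the other fibrillar chains, COL27A1 had a log2 fold change of 0.72 in both high-fiber groups (0.37 in H + N without its replicate 3), COL5A3 one of 0.27 and 0.07 in H − N and H + N (−0.05 and −0.21 without their replicate 3), and COL11A1 one of −1.12 and −0.90. In all, 7 of 9 fibrillar chains were above 0 for HF, and the exceptions were COL24A1 and COL11A1.

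Among basement membrane chains, the pairs behaved unlike each other. COL4A1 and COL4A2 encode the chains of the common type IV network and lie on opposite strands of chromosome 11, overlapping at their starts. COL4A1 was at 1184, 1500 and 1852 CPM in L − N, 742, 715 and 1069 CPM in L + N, 894, 723 and 2321 CPM in H − N and 885, 714 and 2677 CPM in H + N. Replicate 3 of each high-fiber group was far above the other replicates, and the L + N libraries all lay below L − N. For COL4A1 the log2 fold change was −0.85 for L + N, −0.20 for H − N and −0.09 for H + N, with edgeR adjusted p-values of 0.318, 0.848 and 0.934. The sign in the high-fiber groups depended on single libraries. In H − N it ran from −0.90 without replicate 3 to 0.09 without replicate 2, and in H + N from −0.92 without replicate 3 to 0.22 without replicate 2. The endothelium markers, given above, were lower in L + N too, and their part in the COL4A1 value was not tested. COL4A2 went with it, averaging 941 ± 134 CPM (SD, n = 3) in L − N, 647 ± 168 CPM in L + N, 902 ± 419 CPM in H − N and 913 ± 592 CPM in H + N.

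COL4A5 and COL4A6 lie on opposite strands of chromosome X with 207898 bp between them, and they contribute to basement membranes of smooth muscle and some epithelia. COL4A5, located from 88958837 to 89183306, was at 113, 66.3 and 64.6 CPM in L − N, 91.6, 126 and 157 CPM in L + N, 183, 167 and 126 CPM in H − N and 184, 107 and 361 CPM in H + N. The H − N libraries were all above L − N, whereas the L + N and H + N libraries overlapped with L − N replicate 1. COL4A5 had a log2 fold change of 1.42 in H + N (SE 0.394), where an edgeR adjusted p of 0.0501 lay just outside the threshold. DESeq2 called COL4A5 higher there (1.40, DESeq2 adjusted p = 0.00546). With edgeR the log2 fold change was 0.96 in H − N (SE 0.391, edgeR adjusted p = 0.159), 0.62 in L + N (SE 0.389, edgeR adjusted p = 0.326) and 0.88 for HF (SE 0.276, edgeR adjusted p = 0.130). In H + N it was called without L − N replicate 1 (1.73, edgeR adjusted p = 0.0312) and without H + N replicate 2 (1.73, edgeR adjusted p = 0.0230), while without H + N replicate 3 it was 0.84 (edgeR adjusted p = 0.151).

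COL4A6 was at 89.1, 29.6 and 32.4 CPM in L − N, 50.6, 70.9 and 103 CPM in L + N, 162, 104 and 115 CPM in H − N and 114, 68.1 and 168 CPM in H + N. Again L − N replicate 1 was the high library of its group. Its log2 fold change was 1.33 in H − N (edgeR adjusted p = 0.104) and 1.21 in H + N (edgeR adjusted p = 0.111), and without L − N replicate 1 it was 2.03 (edgeR adjusted p = 0.00889) and 1.91 (edgeR adjusted p = 0.0152). For HF it was 0.99 (edgeR adjusted p = 0.135), and 1.34 without L − N replicate 1 (edgeR adjusted p = 0.0134). COL4A3 and COL4A4, chains of the kidney glomerulus and other specialized membranes, were scarce at 0.178 and 0.141 FPKM. They overlap at their starts on chromosome 15, and none of their contrasts passed the threshold.

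The beaded filament chains of type VI had small log2 fold changes. COL6A2 averaged 707 ± 49.3 CPM (SD, n = 3) in L − N, 822 ± 104 CPM in L + N, 809 ± 91.9 CPM in H − N and 873 ± 137 CPM in H + N, with log2 fold changes of 0.22, 0.19 and 0.30 (SE 0.151 each). COL6A3 averaged 1645 ± 442, 1122 ± 277, 1483 ± 696 and 1815 ± 1134 CPM in the same order, and its highest values again came from replicate 3 of the high-fiber groups, at 2280 and 3123 CPM. The locus annotated as collagen alpha-1(VI) has no COL name in the table and so is not among the 43 genes. It lay between 927 and 1448 CPM in all 12 libraries and was called in none of the comparisons.

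COL7A1, the chain of the anchoring fibrils beneath epithelium, was at 78.1, 152 and 101 CPM in L − N and at 198, 177 and 208 CPM in L + N. All L + N libraries were above L − N. The H − N libraries had 129, 49.9 and 110 CPM and the H + N libraries 109, 71.7 and 229 CPM, both overlapping with L − N. Its log2 fold change was 0.82 in L + N (edgeR adjusted p = 0.238) and 0.66 for NCG (edgeR adjusted p = 0.211), which fell to 0.36 without H + N replicate 3.

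Short-chain network collagens had large negative log2 fold changes that rested on 1 library. COL8A1, a chain of vessel walls, was at 223, 21.9 and 43.1 CPM in L − N and between 9.81 and 32.2 CPM in the other 9 libraries. COL8A1 had a log2 fold change of −2.31 in H + N (edgeR adjusted p = 0.0711), and −0.74 without L − N replicate 1 (edgeR adjusted p = 0.312). Without L − N replicate 2, the call was made in H + N (−2.78, edgeR adjusted p = 0.0423) and in L + N (−2.39, edgeR adjusted p = 0.0496). Its relative COL8A2 was at 3.06, 0.251 and 0.0672 CPM in L − N, and its log2 fold change in H + N moved from −4.08 to −1.32 without L − N replicate 1. L − N replicate 1 was also the library with the high smooth muscle markers given above, whose part in the result was not tested. COL8A2 had 0 to 2 reads in the high-fiber libraries. It entered the test only because it is higher in low-fiber libraries, so its fiber values are not independent of the filter.

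Fibril-associated collagens sit on the surface of fibrils and link them to other matrix. COL14A1 averaged 379 ± 219 CPM (SD, n = 3) in L − N, 578 ± 250 CPM in L + N, 685 ± 144 CPM in H − N and 650 ± 154 CPM in H + N. L − N replicate 1, at 630 CPM, lay within the other groups, and the remaining L − N libraries were at 274 and 231. COL14A1 was called higher in H − N and H + N only when L − N replicate 1 was left out. COL12A1 averaged 1097 ± 154, 688 ± 129, 1088 ± 687 and 891 ± 323 CPM in the same group order, with all L + N libraries below L − N and a log2 fold change of −0.67 there (edgeR adjusted p = 0.270). COL16A1 had log2 fold changes of 0.92 in H − N and 0.91 in H + N (edgeR adjusted p = 0.151 and 0.131), the latter 0.55 without H + N replicate 3, and its libraries in both groups were all above L − N.

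COL22A1, a chain found at tissue junctions such as those of muscle and tendon, was at 2.74, 0.439 and 0.470 CPM in L − N, 1.36, 2.62 and 2.62 CPM in L + N, 7.62, 3.68 and 8.55 CPM in H − N and 1.91, 2.28 and 2.15 CPM in H + N. The H − N libraries were the 3 highest of the 12. The L − N values come from 43, 7 and 7 reads. The log2 fold change in H − N was 2.44 (SE 0.640, edgeR adjusted p = 0.0511), just outside the threshold, and 3.84 without the first L − N library (edgeR adjusted p = 0.00149). All fits without that library rest on 7 reads in each remaining L − N library, below the cutoff of the filter. The interaction was −2.49 (edgeR adjusted p = 0.306), and −3.89 without L − N replicate 1 (edgeR adjusted p = 0.0145). Without that library COL22A1 was called in 5 of the 6 comparisons, with NCG as the exception. COL9A2, best known from cartilage, was lower in H + N at 9.36, 13.2 and 10.7 CPM than in L − N at 25.0, 14.4 and 15.4 CPM, with no overlap and a log2 fold change of −0.72 (edgeR adjusted p = 0.145), or −0.42 without L − N replicate 1. COL9A3, COL19A1 and COL21A1 had log2 fold changes of 0.04 to 1.23 against L − N and no call, and the sign for COL21A1 turned in each comparison with single libraries left out.

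Of the multiplexins, which lie where basement membranes meet the fibrillar matrix, COL15A1 and COL18A1 differed in direction. COL15A1 was at 294, 365 and 296 CPM in L − N, 460, 365 and 430 CPM in L + N, 843, 463 and 696 CPM in H − N and 565, 395 and 1243 CPM in H + N. All 6 high-fiber libraries were above L − N. COL15A1 had a log2 fold change of 1.07 in H − N (SE 0.358, edgeR adjusted p = 0.102), 1.20 in H + N (SE 0.359, edgeR adjusted p = 0.0609) and 0.94 for HF (SE 0.252, edgeR adjusted p = 0.10). It was called in H + N without H + N replicate 2 (1.49, edgeR adjusted p = 0.0263) and in H − N without H + N replicate 3 (1.07, edgeR adjusted p = 0.0317), and in H + N it was 0.59 without H + N replicate 3. COL18A1, the source of endostatin, averaged 609 ± 106, 496 ± 93.9, 452 ± 65.8 and 513 ± 109 CPM (SD, n = 3) in the group order used above, with a log2 fold change of −0.43 in H − N (edgeR adjusted p = 0.214).

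Neither of the other transmembrane chains tested was called. COL17A1, a chain of hemidesmosomes in epithelium, was at 27.8, 30.0 and 13.9 CPM in L − N and at 39.3, 36.4 and 177 CPM in H − N, without overlap. The L + N libraries had 17.2, 32.8 and 71.5 CPM and the H + N libraries 25.8, 22.7 and 100.3 CPM, with log2 fold changes of 0.76 and 1.05. Its log2 fold change of 1.82 in H − N (edgeR adjusted p = 0.176) became 0.66 without H − N replicate 3. In that library the 5 epithelium markers summed to 2150 CPM, the highest of the 12, against 948 to 1734 CPM elsewhere, and the part of this in the COL17A1 value was not tested. COL13A1 averaged 12.2 ± 11.7, 12.9 ± 4.50, 7.25 ± 3.65 and 16.9 ± 11.8 CPM (SD, n = 3) in that order too, and its groups overlapped. COL26A1, a short secreted chain first described in testis and ovary, reached 19.9 CPM in H − N replicate 3 and 33.7 CPM in H + N replicate 3 and was at 1.94 to 8.31 CPM in the other libraries. Its log2 fold change of 2.26 in H + N (edgeR adjusted p = 0.179) became 0.50 without H + N replicate 3.

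Chains that are built into 1 molecule were set side by side as the ratio of their FPKM. The ratio of COL1A1 to COL1A2 was 0.799, 0.712 and 0.664 among L − N libraries, 1.03, 0.843 and 1.04 among those of L + N, 1.04, 0.997 and 1.12 among H − N libraries and 0.976, 0.895 and 1.12 among those of H + N. L − N was below each of the 9 other libraries. In mature type I collagen the first chain is in excess over the second, and the mRNA ratio need not match that of the protein. The ratio of COL4A1 to COL4A2 ran from 1.17 to 1.67, that of COL4A5 to COL4A6 from 1.01 to 2.07, and that of COL5A1 to COL5A2 from 0.434 to 1.08. COL6A2 to COL6A3 ran from 0.742 to 1.997, and COL4A3 to COL4A4, which rest on 8 to 60 reads each, from 0.769 to 2.71. For these 5 pairs, L − N overlapped with the other libraries. The ratios are a description and were not tested.

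**Figure D5:**
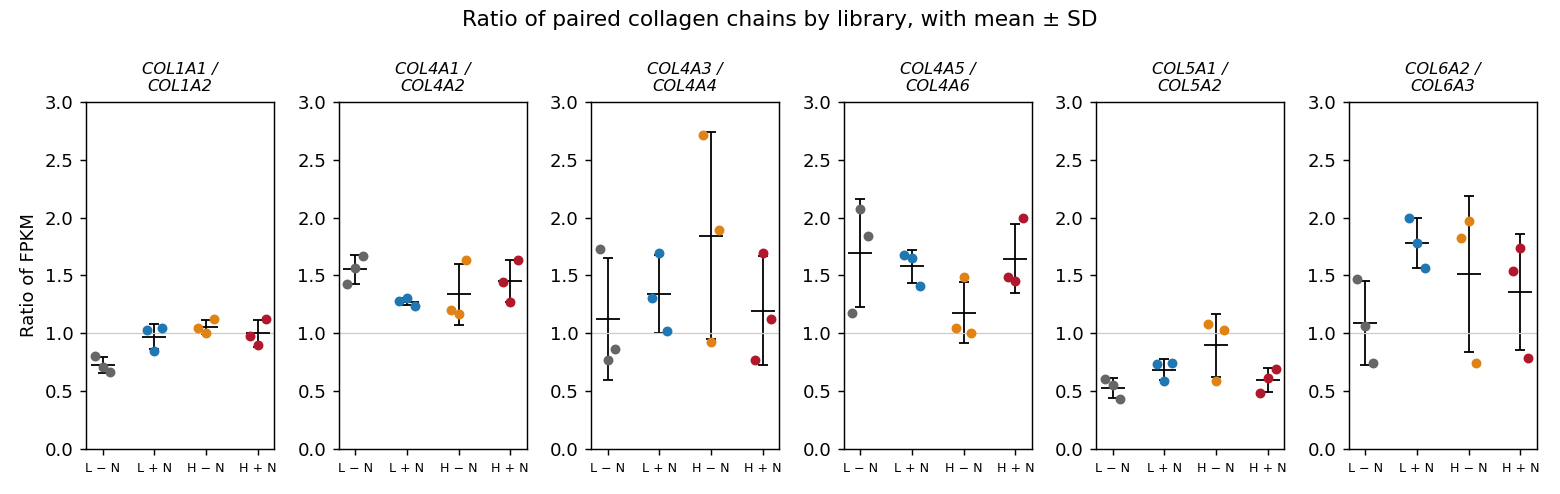
Ratio of deposited FPKM between paired collagen chains in each library (points, replicates 1 to 3 from left to right), with the mean ± SD of each group and a line at 1. The ratio of COL1A1 to COL1A2 is 0.725 ± 0.0683 in L − N and 0.970 to 1.05 on average in the other groups.

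In some libraries, most chains lay on the same side of their group mean. In H + N replicate 3, 27 of the 35 chains tested were above their group mean, with a median deviation of 0.50 on the log2 scale, and in L + N replicate 3, 28 were above, with a median of 0.38. In H + N replicate 2 only 6 were above, with a median of −0.49. It was less marked elsewhere. In L − N 19, 15 and 13 chains were above, with medians of 0.09, −0.04 and −0.10. In H − N 17, 11 and 21 were above, with medians of −0.07, −0.26 and 0.10. The remaining libraries of L + N and H + N each had 12 above. Over all genes tested, the median deviation of a library was between −0.02 and 0.03, a value that TMM scaling holds near 0. A principal component analysis of the 35 chains over all 12 libraries mixes differences between groups with those within groups. Its first component carried 38.7% of their variance. L − N libraries lay at 3.27 to 3.89 on it, beyond all others, while H + N replicate 3 lay at the opposite end at −5.22. Without replicate 3 of both H − N and H + N, COL23A1 was still called in each comparison with L − N, and COL28A1 in L + N and for NCG. COL24A1 in H − N (edgeR adjusted p = 0.0825) and COL23A1 for NCG (edgeR adjusted p = 0.0597) were then lost.

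Enzymes and receptors that act on collagen were read from gene lists, of which only some members are named here. Of 19 genes that fold and modify the chains, among them the prolyl and lysyl hydroxylases and the chaperone SERPINH1, 0 were called by edgeR in any of the 6 comparisons, with 2 to 3 at an unadjusted p under 0.05 in all but the interaction, which had 1. That is a smaller share of the list than the 19.5% to 27.8% of all genes that reached that p, or 12.8% for the interaction. DESeq2 also called 0 of the 19 in each comparison. Of 12 tested genes that process and crosslink collagen, LOXL2, a lysyl oxidase, was called lower in H − N, at 22.1, 27.1 and 61.9 CPM against 77.7, 190.3 and 183 CPM in L − N (log2 fold change −2.03, edgeR adjusted p = 0.0279). Of 9 tested receptors, ITGA11, an integrin chain that binds fibrillar collagen, was called lower in H − N (−1.37, edgeR adjusted p = 0.0199). These are 1 of 12 and 1 of 9 genes, where 2.91% of all genes tested were called in H − N and 2.01% were called lower. Without H − N replicate 1, 0 of all genes tested were called in H − N, so the calls of LOXL2 and ITGA11 were not kept.

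Genes of collagen breakdown were called in both directions. Of 11 tested genes, CTSK, a cathepsin that cuts the collagen helix, was at 1437, 4528 and 4536 CPM in L − N and between 282 and 1214 CPM in the other 9 libraries. It was called lower in L + N (−2.14, edgeR adjusted p = 0.0268), H − N (−2.74, edgeR adjusted p = 0.0235) and H + N (−2.13, edgeR adjusted p = 0.0332). MMP14, a membrane-bound collagenase, was called lower in L + N (−1.49, edgeR adjusted p = 0.0232) and H − N (−1.36, edgeR adjusted p = 0.0450), and MMP2, a gelatinase, in H − N (−1.01, edgeR adjusted p = 0.0432). In L − N, MMP14 was at 1682, 4770 and 4757 CPM, so its replicate 1 lay within the 1031 to 1896 CPM of the other groups. MMP16, another membrane-bound protease, was called higher in L + N (1.03, edgeR adjusted p = 0.0368), H + N (1.36, edgeR adjusted p = 0.0219) and for NCG (1.17, edgeR adjusted p = 0.00738). The calls of CTSK, MMP14 and MMP2 in H − N were also lost without H − N replicate 1. Without H + N replicate 1, only 1 of all genes tested was called in H + N, so at most 1 of the calls of CTSK and MMP16 there was kept. The macrophage markers given above were lower in the same groups as CTSK, which macrophages also make, and their part in these values was not tested.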

How the data were processed

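Endometrial RNA of 12 libraries was assigned to groups by the codes in the deposited titles. According to the submitters' processing notes, fastp 0.22.0, HISAT2 2.1.0, HTSeq 0.9.1 and Sscrofa11.1 were used, and the counting strand is not given in the sources used here, so genes that overlap another are uncertain. The authors deposited counts of reads per gene without normalization, together with FPKM values made from them and the gene length, and both were used as deposited. The counts served all tests and CPM values, the FPKM only levels between genes and sums. Analyses used DESeq2 1.42.0, edgeR 4.0.16 and limma 3.58.1 under R 4.3.3: filterByExpr on the 4 groups, TMM scaling, a quasi-likelihood fit with 1 mean per group and Benjamini-Hochberg adjustment over 15351 genes. This left 8 residual degrees of freedom and a biological coefficient of variation of 0.269. Self-tests on simulated data were run first. Alternatives were DESeq2, RLE scaling, no filter, no fold threshold, 2 groups alone, a replicate block and leaving out each library. The members, gene lists and structural classes were chosen with earlier results of these data known. Chains were named with values if they were among the 10 of highest mean FPKM, were called, belonged to a paired molecule or, for COL1A1 and COL4A5, were named in the study's text. Further chains were named after their values were seen.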

Additional observations from a re-analysis of the deposited data

How the results depend on the processing

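Over the 35 chains and 6 comparisons, 65 of 210 log2 fold changes changed sign under at least 1 alternative, among them 0 of the 52 with an unadjusted p under 0.05 and so 0 of the 7 called. The largest of the 65 was COL26A1 in H − N (1.46). The median log2 fold change of the chains kept its sign with any 1 library left out, but ran from 0.22 to 0.38 for HF, 0.05 to 0.30 for NCG, −0.45 to −0.02 for the interaction, 0.25 to 0.45 for H − N, 0.17 to 0.62 for L + N and 0.36 to 0.82 for H + N. The SD of the chains' median between single libraries of a group was 0.32, which exceeds most of the medians. The medians compare means of several libraries, which spread less than single libraries do. Leaving out 1 of 3 libraries can hardly move a median by 0.32. No conclusion on how firm the medians are is drawn from that value. The number of chains called also moved. With DESeq2 it was 1 for HF (COL8A2), 1 for the interaction (COL23A1), 5 for H − N (COL15A1, COL22A1, COL23A1, COL24A1 and COL4A6) and 6 for H + N (COL15A1, COL1A1, COL23A1, COL4A5, COL4A6 and COL8A1). DESeq2 was fitted to all 43 chains, without the count filter. The share of all genes that DESeq2 called is not given here, so its counts cannot be read as a result about the chains. In a fit of H − N and L − N alone it was 0. Leaving out 1 library gave 0 to 3 for HF, 1 to 2 for NCG, 0 to 1 for the interaction, 0 to 5 for H − N, 0 to 3 for L + N and 0 to 6 for H + N, and the highest counts other than that of NCG came without L − N replicate 1. Without replicate 3 of both H − N and H + N, a choice made after seeing the data, it was 1 for NCG and 1 for H − N. Deviations of same-numbered libraries correlated at −0.32 to 0.28 over all genes, and not every pair was above 0.1, so the numbers were not taken to pair the samples. For the chains, the median deviation was highest in replicate 3 of L + N, H − N and H + N, but not of L − N. In a fit with a replicate block the count was 1 for H − N (COL23A1) and changed by no more than 1.5 times elsewhere. The causes of these changes were not tested. Depth limits only the scarce chains, among them COL28A1 and COL8A2, which rest on at most 48 reads per library. COL22A1 is also among them, with 7 reads in each of the L − N replicates 2 and 3.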
